A study of Homo sapiens with 4 samples.

Results

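Mitochondrial and peroxisomal fatty acid oxidation was read through 34 genes of the carnitine shuttle (5 genes), mitochondrial beta-oxidation (16), peroxisomal oxidation (12) and ketone body formation (1). They were taken by name from the platform annotation, with a probe set (a group of short oligonucleotides that read 1 transcript) used only where that annotation named a single gene. In all 33 of the 34 genes were measured, by 56 probe sets, among 19775 genes measured in the series; SCP2 was not analysed here. The samples were HepG2 cells, an established human hepatoma line, in culture medium holding 25 mM glucose and 10% serum. Small interfering RNA (siRNA) was introduced when the cells covered about 50% of the dish, and RNA was taken after 4 days of culture. LSD1-KD cells received siRNA against LSD1, a histone demethylase encoded by KDM1A, with siRNA-1 on 1 array and siRNA-2 on another. Control cells (2 arrays) were given siRNA directed at GL3. The comparison asks how depletion of LSD1 changes the genes of fat burning in a hepatoma cell, metabolism being the subject of the series' title.

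Beta-oxidation shortens a fatty acid by cycles of dehydrogenation, hydration, a second dehydrogenation and thiolysis. Long chains enter mitochondria through the carnitine shuttle, where CPT1A is the controlled entry step, and the electrons of the first dehydrogenation reach the respiratory chain through the electron transfer flavoprotein. Peroxisomes run a parallel set of enzymes on very long, branched and bile acid side chains and hand shortened products on. In liver both sets supply energy in fasting, many of their genes are targets of the nuclear receptor PPARA, and acetyl-CoA from mitochondria is turned into ketone bodies.

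Values are the deposited log2 values, which the authors made with RMA and which the files hold centred on the median of the 4 arrays for each probe set, so a value is read only against the other arrays of the same probe set, and levels of different genes cannot be compared. Centring makes the 2 middle arrays of a probe set mirror images about 0. The step size of the stored numbers still gives a coarse brightness class: of the probe sets used for the 33 genes, 20 were at 8 or above on the RMA scale, 11 from 4 to 8 and 2 (ACADL and ABCD2) below 4, here called dim. KDM1A had -1.55 with siRNA-1 and -1.17 with siRNA-2, against 1.23 and 1.17 on the control arrays, a difference of -2.56 ± 0.16 (SE, n = 2 arrays per group; limma adjusted p = 0.0862). The SD over all probe sets was 0.197 on the siRNA-1 array and 0.384 on the siRNA-2 array, against 0.164 and 0.154 on the control arrays, so the siRNA-2 array stood apart in spread. Spike-in transcripts added before hybridization read 0.61 and 0.65 on the LSD1-KD arrays and -0.69 and -0.61 on the control arrays, and the 5′ probe set of ACTB lay lower relative to its 3′ probe set on the LSD1-KD arrays (difference -0.61). Hepatocyte markers ran the same way: the mean of the 9 measured markers was 0.15 and 0.53 on the LSD1-KD arrays and -0.13 and -0.23 on the control arrays, with a difference of 0.94 for ALB and 1.31 for CPS1. Of the 9, 8 were at 8 or above on the RMA scale, while PTPRC, CD3E, VWF, CDH5 and COL1A2 were below 4. Among markers of other cells that were not dim, the differences were 1.31 for CD14, 1.88 for COL1A1, 1.20 for ACTA2, -0.19 for DES and -0.54 for PECAM1. These shifts run along the same split of arrays as every difference below, and their part in it was not tested. In a pool of cells a change in the share of cells and a change per cell cannot be told apart.

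Fatty acid oxidation genes more often lay above than below the controls after LSD1 depletion. On both LSD1-KD arrays 19 of 33 members lay above both controls, against 23.7% of all genes, and 4 lay below both, against 25.4%. Among genes that were not dim the counts were 18 and 4 of 31, against 26.1% and 27.5%. By step, 8 of 11 peroxisomal members lay above and 0 below, 7 of 16 mitochondrial members above and 3 below, and 3 of 5 shuttle members above and 1 below. These counts rest on the probe set used for each gene. With the mean of probe sets 18 members lay above and 7 below. Second probe sets of the peroxisomal ACOX3, ACOT8 and ABCD3 lay below both controls, those of ACAA1 and PEX11A above, and that of HSD17B4 overlapped. The median difference was 0.19 over the members (0.21 peroxisomal, 0.05 mitochondrial, 0.40 shuttle) and -0.00 over all genes, and the members ranged from -0.39 (CPT1A) to 1.46 (EHHADH).

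No member passed the limma test of LSD1-KD against control over all genes (0 higher and 0 lower of 33; over all 19775 genes 0.00506% passed higher, a single gene, and 0% lower). At an unadjusted p under 0.05 there were 10 members, against 14.7% of all genes (17.8% of genes that were not dim): 9 with higher values, of which 5 were peroxisomal, and CPT1A with a lower one. The smallest adjusted p of a member was 0.195. These p-values measure only the spread between the arrays of a group. The labels do not describe the control arrays as separate cultures, so the spread between them may be technical. The LSD1-KD arrays received different siRNAs, so the spread between them also holds any difference between siRNA-1 and siRNA-2. An exact permutation test of 2 arrays against 2 cannot give a two-sided p below 0.33.

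**Figure D1:**
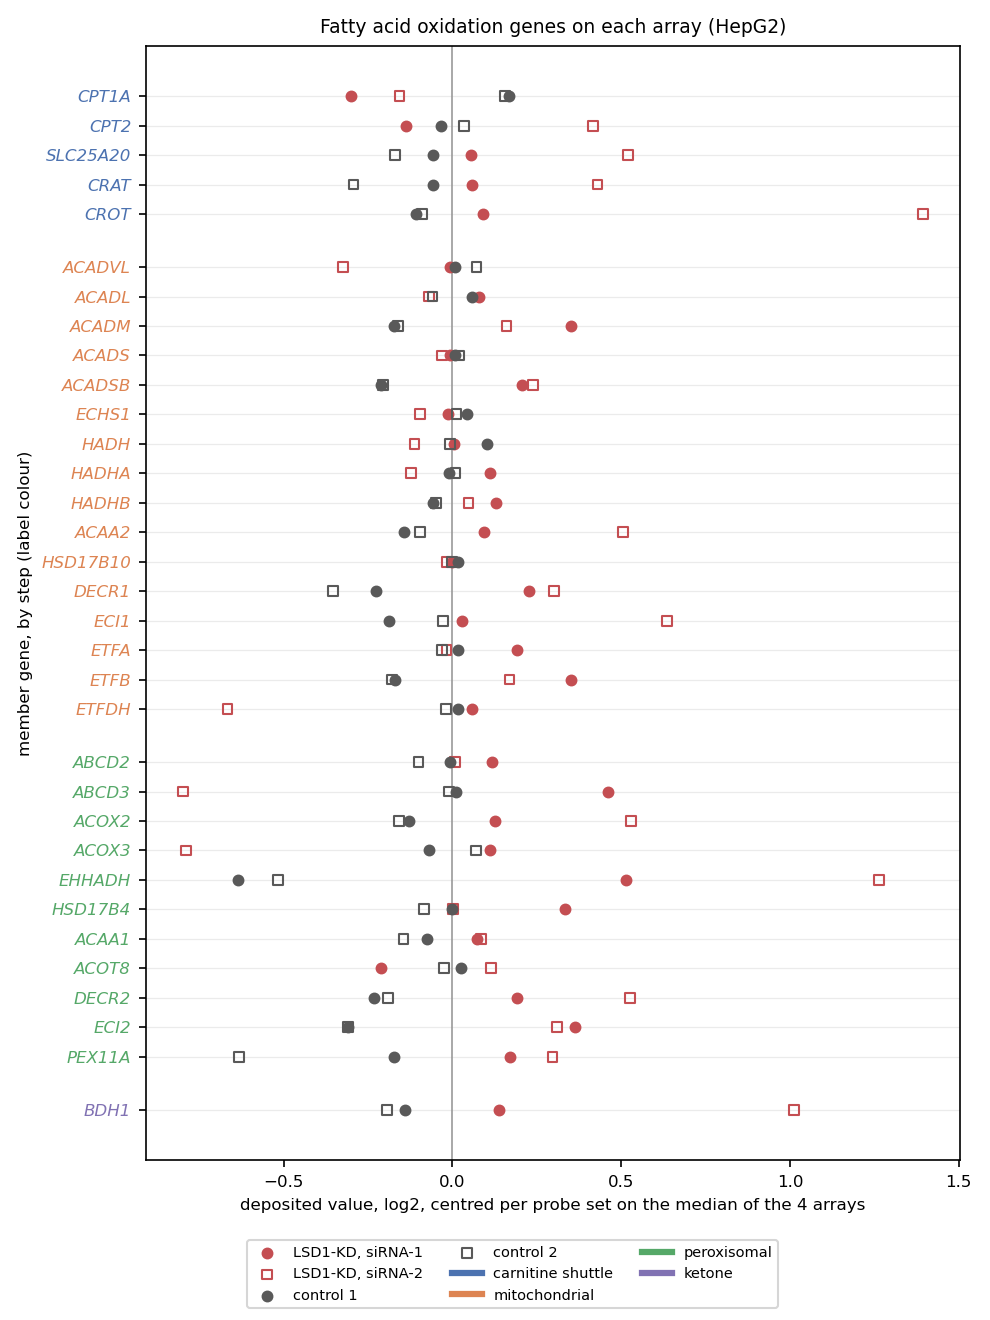
Deposited log2 values, centred per probe set, of the 33 member genes on each array: LSD1-KD with siRNA-1 (filled red circles) and siRNA-2 (open red squares), and control 1 (filled grey circles) and control 2 (open grey squares). Genes run down the page by step, marked by label colour; in 19 genes both red points lie right of both grey points, in 4 genes left of them, and EHHADH reaches 1.26 with siRNA-2.

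Promoter windows were read for the members with an entry in the RefSeq table (GRCh38.p14), 26 of the 33; DECR2, ACOX2, CRAT, ETFDH, DECR1, ACAA1 and EHHADH, the member with the largest difference, are not among them. The windows run from 250 bases before to 50 after an annotated start. Where a gene had several windows, only that farthest upstream on its strand was read. Promoters at other starts of a gene, CPT1A included, are therefore not covered. That of CPT1A, the member with the lowest difference, is given 5′ to 3′ with GGGCGG, the GC box, on either strand in capitals. It lies at chr11:68844228-68844527 (minus strand).
CPT1A: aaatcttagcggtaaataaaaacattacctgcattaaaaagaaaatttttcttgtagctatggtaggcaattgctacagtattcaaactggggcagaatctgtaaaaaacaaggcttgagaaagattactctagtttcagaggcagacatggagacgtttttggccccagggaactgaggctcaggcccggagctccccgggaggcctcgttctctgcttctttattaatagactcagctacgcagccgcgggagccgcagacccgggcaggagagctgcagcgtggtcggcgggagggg

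The CPT1A window held 0 GC boxes, and so no capitals, at 50% G and C. GC boxes were in 20 of 26 member windows (76.9%), against 58.8% of 15384 windows of measured genes. CCAAT was in 7 of 26 (26.9%, against 36.1%), TATAAA in 1 (3.85%, against 8.86%) and GCGCATGC in 0 (against 4.23%). AGGTCA, the hexamer that nuclear receptors such as PPARA recognise in tandem, was in 0 of 26 windows, against 11.5% of all. The longer TNAAGGTCA (0.696% of all windows) and a direct repeat of AGGNCA with 1 base between the copies (0.273%) were in 0 as well. TNAAGGTCA contains AGGTCA, and every motif was searched on both strands. A match describes letters in the window and not a bound site, and the absence of a match says only that these letters are not in these bases.

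In the carnitine shuttle the group difference of the entry enzyme had another sign than those of the other 4 genes, although the CPT2 groups overlapped. CPT1A, which loads long-chain fatty acids onto carnitine at the outer mitochondrial membrane, had -0.30 with siRNA-1 and -0.16 with siRNA-2, against 0.17 and 0.16 on the control arrays. Both LSD1-KD values lay below both controls, a difference of -0.39 ± 0.11 (SE, n = 2 arrays per group; limma adjusted p = 0.273). A further pair of CPT1A probe sets in the 4 to 8 class had larger differences, -0.94 and -0.77, and a dim one read -0.03. The 3 probe sets that were not dim had both LSD1-KD arrays below both controls, with differences of unequal size.

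SLC25A20, the translocase that carries acylcarnitine across the inner membrane, had 0.06 with siRNA-1 and 0.52 with siRNA-2, against -0.06 and -0.17 on the control arrays (difference 0.40 ± 0.19, limma adjusted p = 0.416). CPT2, which returns the acyl group to coenzyme A inside, read -0.14 and 0.42 on the LSD1-KD arrays, against -0.03 and 0.03 on the control arrays. The siRNAs lay on opposite sides of the controls for CPT2, so its groups overlapped (0.14 ± 0.21). CROT, the peroxisomal enzyme that passes medium-chain products to carnitine, had 0.09 with siRNA-1 and 1.40 with siRNA-2, against -0.11 and -0.09 on the control arrays. Its difference of 0.84 ± 0.45 came mostly from siRNA-2, and its other probe sets read 0.44 and 0.49. CRAT, which handles acetyl and other short groups, read 0.42 ± 0.18 and 0.88 in its second probe set.

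Mitochondrial chain-shortening enzymes differed among themselves. Among the acyl-CoA dehydrogenases, which start each cycle, ACADM (medium chains) had 0.35 with siRNA-1 and 0.16 with siRNA-2, against -0.17 and -0.16 on the control arrays (0.42 ± 0.12, limma adjusted p = 0.272). ACADSB, which acts on short branched chains, read 0.21 and 0.24 on the LSD1-KD arrays, against -0.21 and -0.21 on the control arrays (0.43 ± 0.10, limma adjusted p = 0.242), and its second probe set read 0.52. Both LSD1-KD arrays lay above both controls in each ACADSB probe set; in the second one the values were 0.14 (siRNA-1) and 0.53 (siRNA-2) on the LSD1-KD arrays, against -0.14 and -0.24 on the control arrays. ACADVL (very long chains) and ACADS (short chains) lay below both controls by small amounts, -0.21 ± 0.15 and -0.03 ± 0.10, and the dim ACADL read 0.01 ± 0.12.

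The hydratase and dehydrogenase steps had small differences. ECHS1, the short-chain hydratase, read -0.08 ± 0.10, HSD17B10, a dehydrogenase with substrates beyond fatty acids, -0.02 ± 0.10, and HADH, the short-chain hydroxyacyl-CoA dehydrogenase, -0.10 ± 0.11, with 0.17 and 0.29 in its other probe sets. HADHA and HADHB, the alpha and beta subunits of the trifunctional protein that shortens long chains, read -0.01 ± 0.13 and 0.14 ± 0.10. In the probe sets used, the groups overlapped in every case but HADHB and ECHS1. For HADHB both LSD1-KD arrays lay above both controls, by 0.18 (siRNA-1) and 0.10 (siRNA-2) from the control mean, and for ECHS1 both lay below. In the other HADH probe sets (0.17 and 0.29) both LSD1-KD arrays lay above both controls, so the HADH probe sets differed in direction. ACAA2, the mitochondrial thiolase, read 0.09 and 0.51 on the LSD1-KD arrays, against -0.14 and -0.09 on the control arrays, in its brightest probe set (0.42 ± 0.17). Another ACAA2 probe set, in the 4 to 8 class, had both LSD1-KD arrays below both controls (-0.48), and a further one read 0.16, so the probe sets of ACAA2 gave opposite directions.

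HADHA and HADHB are transcribed away from each other from neighbouring start sites, and their windows overlap. In RefSeq (GRCh38.p14) the start sites lie 307 bases apart on opposite strands, and the windows of 250 bases before to 50 after each start share 194 bases. The HADHB window (chr2:26244689-26244988, plus strand, 5′ to 3′) is shown for this shared stretch; capitals mark GGGCGG, the GC box, on either strand.
HADHB: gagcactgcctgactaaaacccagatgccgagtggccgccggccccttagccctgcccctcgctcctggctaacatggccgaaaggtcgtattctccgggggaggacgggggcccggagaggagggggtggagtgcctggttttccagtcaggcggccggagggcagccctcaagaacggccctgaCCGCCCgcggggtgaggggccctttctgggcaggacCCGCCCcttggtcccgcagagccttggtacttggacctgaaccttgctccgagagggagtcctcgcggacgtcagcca

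Reductases and isomerases that handle unsaturated fatty acids work in both compartments. DECR1, the mitochondrial dienoyl-CoA reductase, had 0.23 with siRNA-1 and 0.30 with siRNA-2, against -0.23 and -0.35 on the control arrays (0.55 ± 0.11, 1.47-fold, limma adjusted p = 0.217). Its peroxisomal counterpart DECR2 read 0.19 and 0.53 on the LSD1-KD arrays, against -0.23 and -0.19 on the control arrays (0.57 ± 0.15, limma adjusted p = 0.264). ECI1, a mitochondrial enoyl-CoA isomerase that moves double bonds into position, read 0.03 and 0.64 on the LSD1-KD arrays, against -0.19 and -0.03 on the control arrays (0.44 ± 0.24, limma adjusted p = 0.453). ECI2, an isomerase found in peroxisomes and mitochondria, read 0.36 and 0.31 on the LSD1-KD arrays, against -0.31 and -0.31 on the control arrays. None of the 4 passed the test; both LSD1-KD values lay above both controls in each, as in 23.7% of all genes, and the ECI2 difference (0.65 ± 0.10, 1.57-fold, limma adjusted p = 0.195) had the smallest p among the members.

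Electrons from the first dehydrogenation pass through the 2 subunits of the electron transfer flavoprotein to its dehydrogenase. ETFB, the beta subunit, had 0.35 with siRNA-1 and 0.17 with siRNA-2, against -0.17 and -0.18 on the control arrays (0.43 ± 0.12, limma adjusted p = 0.265). ETFA, the alpha subunit, read 0.09 ± 0.12 and its groups overlapped. ETFDH, which delivers the electrons to ubiquinone, had 0.06 with siRNA-1 and -0.67 with siRNA-2, against 0.02 and -0.02 on the control arrays. Its low value was on the siRNA-2 array alone (difference of the groups -0.30 ± 0.27), while a second probe set had both LSD1-KD arrays below both controls (-0.37).

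EHHADH had the largest difference of all members. It encodes the peroxisomal bifunctional enzyme of straight-chain and dicarboxylic acid oxidation and is a classical target of PPARA in rodents. It had 0.52 with siRNA-1 and 1.26 with siRNA-2, against -0.63 and -0.52 on the control arrays. Both LSD1-KD values lay about a unit or more above both controls, a difference of 1.46 ± 0.28 (SE, n = 2 arrays per group), or 2.76-fold, with a limma adjusted p of 0.206; it was read by 1 probe set. With quantile normalization EHHADH was the 1 member of 33 past the limma threshold (adjusted p = 0.0149). In that setting 405 of all 19775 genes passed, 276 higher and 129 lower.

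The other peroxisomal enzymes differed among themselves. ACOX2, an oxidase of branched chains and bile acid intermediates, read 0.13 and 0.53 on the LSD1-KD arrays, against -0.13 and -0.16 on the control arrays (0.47 ± 0.17, limma adjusted p = 0.328). ACOX3, another branched-chain oxidase, had 0.11 with siRNA-1 and -0.79 with siRNA-2, against -0.07 and 0.07 on the control arrays (-0.34 ± 0.33). Its second probe set, of the same brightness class, had both LSD1-KD arrays below both controls (-0.47). The 2 oxidases thus lay on opposite sides of the controls with siRNA-2. HSD17B4, the second bifunctional enzyme, read 0.21 ± 0.15, and ACAA1, the peroxisomal thiolase, 0.19 ± 0.10, both with LSD1-KD values above both controls. Second probe sets read 0.06 for HSD17B4, where the groups overlapped, and 0.34 for ACAA1. ACOT8, a thioesterase that releases the acyl group, read -0.05 ± 0.15 in the probe set used and -0.64 in its second one, where both LSD1-KD arrays lay below both controls.

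Among peroxisomal membrane proteins, PEX11A, which takes part in peroxisome division, read 0.17 and 0.30 on the LSD1-KD arrays, against -0.17 and -0.63 on the control arrays (0.64 ± 0.19, limma adjusted p = 0.290). The gap between its controls, 0.46, was the widest of any member, against a median of 0.05, and its second probe set read 0.16. ABCD3, a transporter of branched and dicarboxylic acyl-CoA, had 0.46 with siRNA-1 and -0.80 with siRNA-2, against 0.01 and -0.01 on the control arrays. The LSD1-KD arrays lay on opposite sides of the controls (-0.17 ± 0.44); its second probe set read -0.13. The dim ABCD2, a related transporter of very long chains, read 0.12 ± 0.11. BDH1, the mitochondrial dehydrogenase that makes and uses beta-hydroxybutyrate, had 0.14 with siRNA-1 and 1.01 with siRNA-2, against -0.14 and -0.19 on the control arrays (0.74 ± 0.31, limma adjusted p = 0.379), and 0.97 in a dim second probe set.

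**Figure D2:**
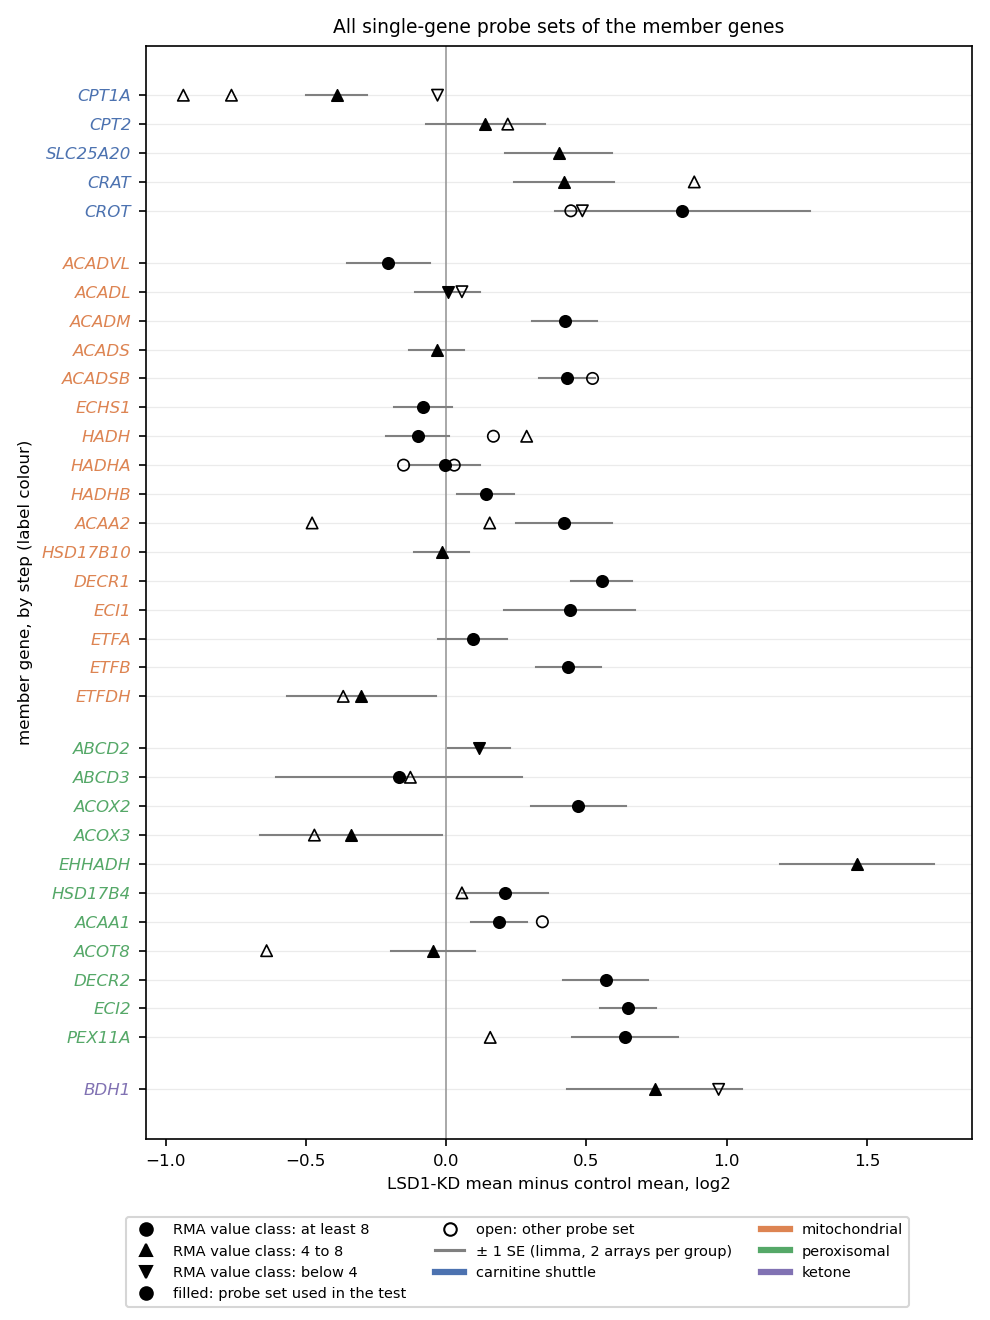
Difference of the LSD1-KD mean from the control mean (log2) for all 56 probe sets of the 33 member genes; filled symbols are the probe sets used in the test, with bars of 1 SE, open symbols the others, and symbol shape the brightness class. Of 23 other probe sets 19 have the sign of the one used, and the 4 exceptions belong to HADH, HADHA and ACAA2.

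Probe sets of the same gene mostly went the same way. Of 23 other probe sets of 17 members, 19 had the sign of the one used, and the 4 that did not belong to HADH (2), HADHA and ACAA2. In 14 of the 17 genes all probe sets had 1 sign.

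Each siRNA was also compared with the controls by itself (limma, 3 groups). Only the control pair gives a residual there, and the lone array of each siRNA is taken to have the same error, although the siRNA-2 array had the widest spread over probe sets; these calls describe single arrays. With siRNA-1, 25 members lay above both controls and 6 below, against 40.4% and 40% of all genes. With siRNA-2, 21 lay above and 11 below, against 40.1% and 44.6%. The member median was 0.18 on the siRNA-1 array (all genes 0.00) and 0.20 on the siRNA-2 array (all genes -0.02). Both comparisons share the control arrays.

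With siRNA-2, 12 members rose and 3 fell, against 13.7% of all genes higher and 10.5% lower (17.3% and 13.2% of genes that were not dim). Those that rose were EHHADH (1.84, 3.58-fold), CROT (1.49), BDH1 (1.18), ECI1 (0.74), DECR2 (0.74), ACOX2 (0.67), SLC25A20 (0.63), ACAA2 (0.62), ECI2 (0.62), DECR1 (0.59), ACADSB (0.45) and CPT2 (0.42), with standard errors from 0.07 to 0.10 and limma adjusted p from 0.0150 to 0.0479. ABCD3 fell by 0.80, ACOX3 fell by 0.79 and ETFDH fell by 0.67 (limma adjusted p from 0.0196 to 0.0278). ACAA2 is counted here by the brightest of its probe sets, the one tested; another had -0.55 with siRNA-2. With quantile normalization no gene of the series was called with siRNA-2, these 15 members included. With siRNA-1 no member passed (0 higher and 0 lower of 33, as for all genes, 0% each way), 12 members had an unadjusted p under 0.05 against 27% of all genes, and the same 15 members read from -0.14 (CPT2) to 1.09 (EHHADH). The smallest limma adjusted p that any member reached with siRNA-1 was 0.0835, for EHHADH.

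The single arrays of the siRNAs were also set against each other, with an error that again comes from the control pair alone, so the values describe these 2 arrays and not the siRNAs. In that limma fit 4 members were past the threshold, while with quantile normalization no gene of the series was. CROT was higher on the siRNA-2 array by 1.30 ± 0.08 and BDH1 by 0.87 ± 0.08, 2 members against 4.23% of all genes; ABCD3 (-1.26 ± 0.08) and ETFDH (-0.73 ± 0.08) were lower on it, 2 members against 2.99% (limma adjusted p from 0.0412 to 0.0466). These shares, 2 of 33 each way, are near the background. The siRNA-2 minus siRNA-1 difference was -0.05 ± 0.08 for ECI2 and 0.07 ± 0.11 for DECR1, each read by 1 probe set. It was 0.03 in the probe set used for ACADSB and 0.39 in its second one, which is in the same brightness class, and 0.01 and 0.16 in those of ACAA1. Over the members the median gap between the LSD1-KD arrays was 0.23, against 0.05 between the control arrays. Over all genes these medians were 0.21 and 0.08, so the gap between the LSD1-KD arrays was near that of all genes.

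**Figure D3:**
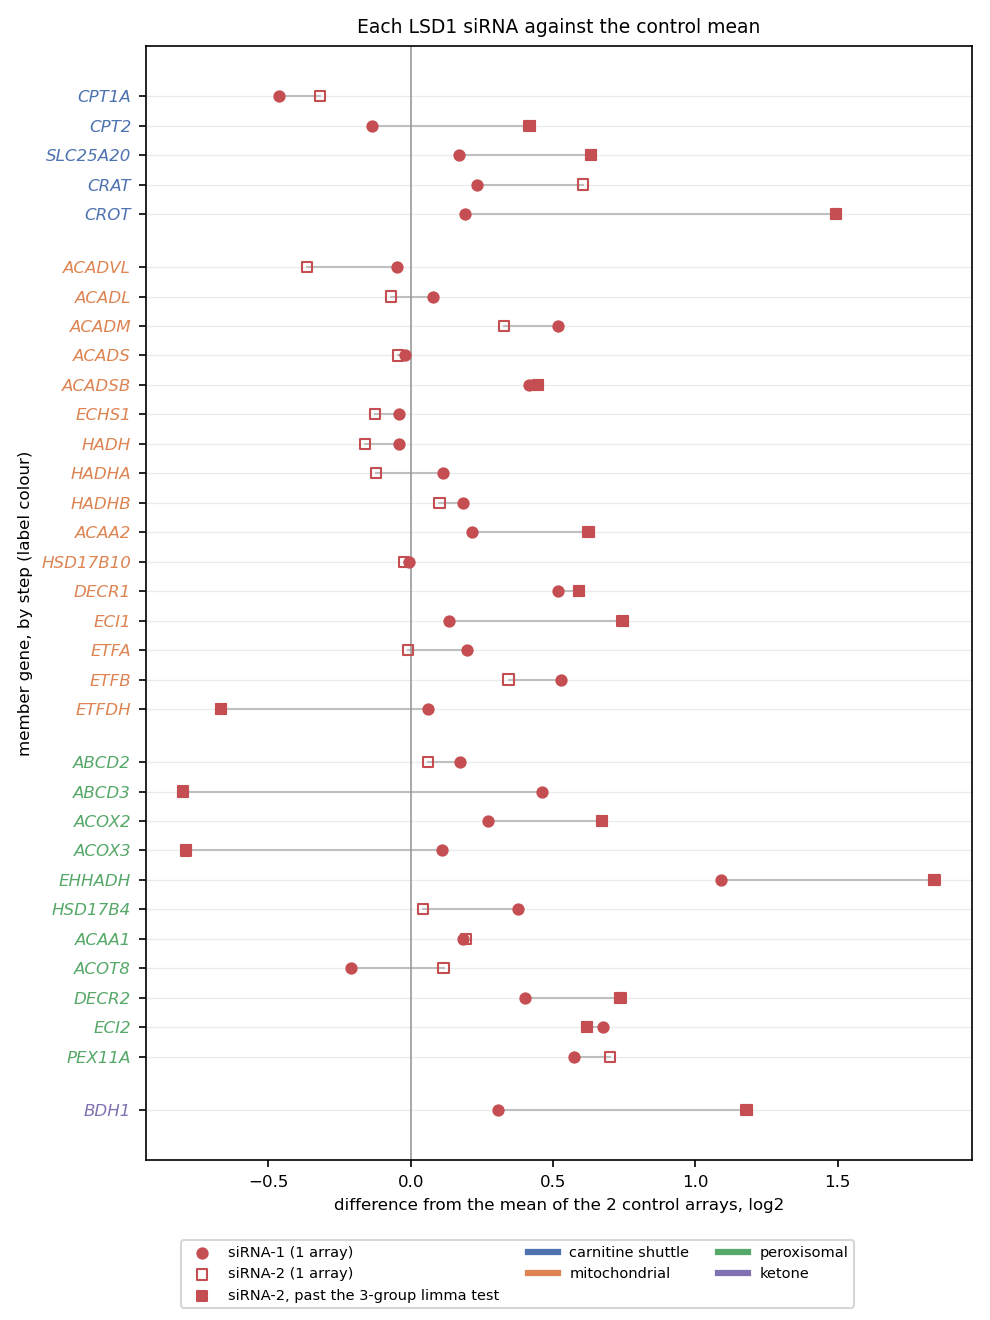
Difference of each LSD1-KD array from the mean of the 2 control arrays (log2) for the 33 member genes: siRNA-1 as filled circles, siRNA-2 as squares, filled where the 3-group limma test called it. The grey line joins the 2 siRNAs; it is short for ECI2 and crosses 0 for 8 genes, CPT2, ACADL, HADHA, ETFA, ETFDH, ABCD3, ACOX3 and ACOT8.

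Further genes of the pathway were read from lists, whose counts above and below both controls stand against 23.7% and 25.4% of all genes. Of genes that bring fatty acids in and activate them, 1 of 13 passed over all genes: CD36, a membrane receptor for long-chain fatty acids (1.73 with siRNA-1 and 1.77 with siRNA-2, against -1.88 and -1.73 on the control arrays; limma adjusted p = 0.0492). CD36 was the single gene of the series that passed. The lists were chosen with earlier results of these data known, so its call says nothing about the list. No gene passed with the mean of probe sets, without dim genes, with robust moderation, with the replicate block or with every probe set tested by itself. The number of genes past the threshold also changed when an array was left out. In that list 6 lay above both controls and 2 below, with the acyl-CoA synthetases ACSL4 at 0.98 ± 0.10 and ACSM3 at 1.13 ± 0.28 and the liver bile acid ligase SLC27A5 at -0.61 ± 0.14 (limma adjusted p from 0.128 to 0.254). Of 8 further carnitine genes 0 passed, 4 lay above and 0 below. SLC22A5, the carnitine importer, read 0.70 ± 0.27, ALDH9A1 of carnitine synthesis 0.45 ± 0.15, and MLYCD, which breaks down the CPT1A inhibitor malonyl-CoA, 0.72 ± 0.36.

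Of 10 further mitochondrial genes 0 passed, 5 lay above and 1 below. The list holds acyl-CoA dehydrogenases, thioesterases and steps for odd or branched chains. MMUT, the methylmalonyl-CoA mutase, read 0.59 ± 0.18 and IVD, the dehydrogenase of leucine breakdown, 0.48 ± 0.17. The 1 gene below was ACOT9, a thioesterase, at -0.30 ± 0.12. Of 22 further peroxisomal genes 0 passed, 9 lay above and 2 below, against 23.7% and 25.4% of all genes. PHYH, which starts alpha-oxidation of phytanic acid, had 0.43 with siRNA-1 and 1.47 with siRNA-2, against -0.46 and -0.43 on the control arrays (1.39 ± 0.37). PECR, a reductase, read 0.52 ± 0.12, and the import factors PEX5 and PEX14 read 0.58 ± 0.16 and 0.34 ± 0.10. With siRNA-2 alone 6 of the 22 rose, PHYH and PEX5 among them, and 2 fell, against 13.7% and 10.5% of all genes, so the lower count is near the background.

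Of 3 further ketone genes 0 passed; BDH2 read 0.70 ± 0.11, OXCT1, which uses ketone bodies, 0.17 ± 0.10, and ACAT1, which joins acetyl-CoA, -0.16 ± 0.11. PPARA, its partners and other targets had 0 of 19 genes past the test, 5 above both controls and 4 below, near the 23.7% and 25.4% of all genes, with a median of 0.07. PLIN2, a lipid droplet coat protein and PPARA target, read -0.68 ± 0.17, ANGPTL4, a secreted lipase inhibitor, -0.46 ± 0.17, and the coactivators PPARGC1B and PPARGC1A read -0.66 ± 0.24 and 0.52 ± 0.21. These 4 had limma adjusted p from 0.252 to 0.364. Some listed genes were not analysed here.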

How the data were processed

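Messenger RNA of HepG2 cells was measured on 4 Affymetrix HG-U133_Plus_2 arrays, 2 LSD1-KD (1 array per siRNA) and 2 control, grouped by sample title. The deposited log2 values were made by the authors with RMA, per the submitters' processing notes; base 2 is taken as RMA's, and no version was found in the sources used here. The values show that each of the 54675 probe sets was centred on the median of the 4 arrays (largest deviation 5.0e-07). Arrays give no counts or depth; their number limits the precision.

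Of the probe sets, 41097 named 1 gene, 1801 several and 11777 none; symbols were updated by gene identifier (19734 of 19775 genes matched RefSeq), and 62 Affymetrix controls were left out. RMA values are single-precision, with a coarser step at 8 and above than from 4 to 8 or below 4, which survives centring: 22.0%, 37.5% and 39.9% of probe sets fell in these classes and 0.538% in none, and a row can fall by chance into a brighter class. Each gene was read by its probe set of the brightest class, then one without a letter suffix, then by identifier. Tests used limma (version 3.58.1, R 4.3.3; two-sided, empirical Bayes moderation, Benjamini-Hochberg over all genes, threshold 0.05), with no replicate block, after tests on simulated data.

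The members and lists were chosen with earlier results of these data known. Values on each array are printed for the 10 members with the smallest p, those called with siRNA-2 or between siRNAs, and CPT1A, CPT2 and SLC25A20; up to 4 genes are named per further list. Alternatives were other probe set rules, leaving out dim genes, other scalings, robust moderation, a replicate block, tests per probe set and leaving out each array.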

Additional observations from a re-analysis of the deposited data

Results flagged for a closer look

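Between the siRNA-2 and the siRNA-1 array, 4 members were past the limma threshold: CROT (1.30) and BDH1 (0.87) were higher on the siRNA-2 array, and ABCD3 (-1.26) and ETFDH (-0.73) lower. With quantile normalization no gene of the series was past it. Each siRNA was read on 1 array, the error comes only from the 2 control arrays, and the siRNA-2 array has the widest spread of all probe sets, so a difference between the siRNAs and one between the 2 arrays cannot be told apart. In the other probe sets of these genes the siRNA-2 minus siRNA-1 difference was 0.89 and (dim) 1.10 for CROT, (dim) 1.56 for BDH1, -0.44 for ETFDH and -0.13 for ABCD3, far smaller than in the ABCD3 probe set used.

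The hybridization spike-ins, 18 Affymetrix control probe sets outside the gene comparison, read 1.28 higher on the LSD1-KD arrays than on the control arrays, with a range of 0.80 to 1.53. The poly-A controls, which enter ahead of the labelling step, had 0.14 and 0.05 on the LSD1-KD arrays and -0.37 and -0.04 on the control arrays. Their part in the differences of the member genes was not tested.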

How the results depend on the processing

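Over 12 alternatives the member values kept their sign and side of the threshold in 356 of 387 cases. No member passed in the main fit. A replicate block or a left-out control array leaves less to estimate the spread from, so an unchanged side of the threshold says little there. The number of all genes past the threshold, 1, was 0 with the mean of probe sets, without dim genes, with robust moderation, with the replicate block and with every probe set tested by itself, 405 (276 higher, 129 lower) with quantile normalization, and 0 to 4773 when an array was left out. Members past the threshold, 0, were 1 with quantile normalization (EHHADH, adjusted p = 0.0149) and 0 to 15 with an array left out; the 15 came without the siRNA-1 array. Members above both controls numbered 13 of 26 without _x_at and _s_at probe sets and 18 to 25 of 31 to 33 otherwise; those below were 7 with the mean of probe sets and 4 to 11 with an array left out, 11 without the siRNA-1 array. Their median (0.19) was 0.14 with the mean of probe sets, 0.13 without _x_at and _s_at, 0.21 without dim genes, 0.20 with arrays centred on their median, 0.22 with quantile normalization, and 0.17 to 0.22 with an array left out. KDM1A passed with quantile normalization (-3.05, adjusted p = 0.0337) and without the siRNA-1 array; without an array it read -2.75 to -2.37, and over 11 alternatives its adjusted p ran from 0.0150 to 0.999. It has no value without _x_at and _s_at.

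Quantile normalization gives the siRNA-2 array the spread of the others, and with it no gene of the series passed with siRNA-2, the 15 members included. With the other settings the members past the threshold with siRNA-2 changed in number, and so did the genes of the series. With siRNA-1 the calls of EHHADH and ECI2 depended on the setting as well, as did those of other genes of the series, higher and lower. Between siRNAs, 4 became 7 with the mean of probe sets, 10 without dim genes, 8 with centred arrays and 0 with quantile normalization. Calls between siRNAs over all genes rose and fell in the same settings, so this change in count is not particular to the members. The sign turned for HADH with the mean of probe sets (0.12), ACAA2 without _x_at and _s_at (-0.48), HADHA with centred arrays (0.0056) and quantile normalization (0.026), and ABCD3 with quantile normalization (0.049). With an array left out, HADHA ranged from -0.12 to 0.11, ACADL from -0.069 to 0.079, ETFA from -0.010 to 0.20, ACOT8 from -0.21 to 0.12, CPT2 from -0.14 to 0.42, ETFDH from -0.67 to 0.060, ABCD3 from -0.80 to 0.46 and ACOX3 from -0.79 to 0.11; the other 23 members kept their sign throughout. The cause of these changes was not tested. The replicate numbers pair nothing in the labels, and same-numbered arrays did not deviate together (r = 0.03 over genes between the replicate differences of the 2 groups); with the replicate block 0 of 33 members passed, as without it.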
